A study of Homo sapiens with 12 samples.

Results

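The genes described here are 57 cell cycle and DNA replication genes, of the 60671 genes counted in the series. They were taken from the count table by symbol, and all 57 were found. The 27 S-phase members make or guard new DNA, and the 30 mitosis members divide the chromosomes and the cell. The rule that picks them is a list of symbols and reads no value from the table.

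The cells are LS180, an established human colorectal cancer line. There are 3 derivatives of it. In each, doxycycline switches on 1 construct: V5-tagged wild-type SOX9, V5-tagged M303, which is a truncated SOX9, or GFP as the control. Each line was measured after 24 h in 0.5 µg/ml doxycycline (induced) and without doxycycline (uninduced), which gives 6 groups of 2 libraries. The libraries hold oligo(dT)-captured mRNA. All groups are LS180 cells, so the untagged endogenous SOX9 gene is present in each of them, and each construct sits in its own line, so construct and line cannot be told apart. Nothing states that duplicates were separate cultures, so the spread behind each p-value is that between the libraries at hand, and it may be technical.

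Proliferating cells copy their DNA in S phase and separate it in mitosis. Genes of the first step are switched on by E2F transcription factors as cells leave G1, and many bear an E2F site close to the transcription start. Genes of the second step peak later, and many bear a CHR element beside boxes for the factor NF-Y; the DREAM complex holds them silent in resting cells, and MYBL2 and FOXM1 activate them before division. In the intestine, crypt progenitors cycle and differentiated cells do not, and SOX9 is a transcription factor of the crypt base.

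The 2 lists differed in their promoters, which the choice of members did not use. RefSeq promoter windows (GRCh38.p14, from 250 bases before to 50 bases after the first listed start) were held for 47 members, 23 of S phase and 24 of mitosis. The windows were searched on both strands for an E2F site (TTTCCCGC, TTTCGCGC, TTTGCCGC or TTTGGCGC), a CHR element (TTTGAA or TTCGAA) and the NF-Y box CCAAT. An E2F match on one strand can overlap one on the other, as in MCM6. The 14 windows printed here show letter matches to the E2F site for S-phase members and to the CHR element for mitosis members. Each surrounds the match nearest the listed start. All are written 5′ to 3′ along the gene's strand, with matches to any of the 3 motifs in capitals. The first 6 are S-phase members.
MCM6 (chr2:135876502-135876579, minus strand): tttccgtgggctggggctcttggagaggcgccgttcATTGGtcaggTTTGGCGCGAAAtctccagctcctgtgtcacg
PCNA (chr20:5126654-5126731, minus strand): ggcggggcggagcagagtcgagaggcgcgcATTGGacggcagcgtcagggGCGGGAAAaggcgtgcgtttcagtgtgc
CDT1 (chr16:88803704-88803781, plus strand): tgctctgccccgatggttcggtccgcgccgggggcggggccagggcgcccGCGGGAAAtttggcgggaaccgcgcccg
TYMS (chr18:657564-657641, plus strand): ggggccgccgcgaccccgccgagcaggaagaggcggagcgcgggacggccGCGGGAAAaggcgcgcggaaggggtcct
E2F1 (chr20:33686378-33686455, minus strand): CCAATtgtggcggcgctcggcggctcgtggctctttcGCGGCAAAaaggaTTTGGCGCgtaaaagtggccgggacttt
POLA1 (chrX:24693731-24693808, plus strand): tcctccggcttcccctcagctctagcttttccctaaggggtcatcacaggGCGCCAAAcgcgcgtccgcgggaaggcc
MKI67 (chr10:128126427-128126502, minus strand): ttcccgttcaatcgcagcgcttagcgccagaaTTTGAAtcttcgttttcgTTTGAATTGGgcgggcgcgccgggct
TOP2A (chr17:40418022-40418097, minus strand): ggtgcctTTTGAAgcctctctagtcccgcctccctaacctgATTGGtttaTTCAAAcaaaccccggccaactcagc
CCNB2 (chr15:59105067-59105142, plus strand): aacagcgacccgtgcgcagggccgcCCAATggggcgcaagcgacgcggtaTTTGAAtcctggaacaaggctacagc
CDK1 (chr10:60778120-60778195, plus strand): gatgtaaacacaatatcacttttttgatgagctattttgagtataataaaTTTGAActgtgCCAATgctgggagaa
PLK1 (chr16:23678810-23678885, plus strand): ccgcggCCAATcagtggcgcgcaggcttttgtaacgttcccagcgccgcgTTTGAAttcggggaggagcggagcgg
CDC20 (chr1:43358866-43358941, plus strand): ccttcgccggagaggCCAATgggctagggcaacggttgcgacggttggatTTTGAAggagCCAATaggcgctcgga
CENPA (chr2:26785988-26786063, plus strand): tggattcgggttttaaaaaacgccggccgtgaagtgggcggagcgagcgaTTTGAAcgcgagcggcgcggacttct
ANLN (chr7:36389792-36389867, plus strand): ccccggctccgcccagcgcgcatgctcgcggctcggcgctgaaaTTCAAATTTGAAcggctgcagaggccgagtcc

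E2F letters were found in 15 of the 23 S-phase windows (65.2%) and in 3 of the 24 mitosis windows (12.5%), against 5.1% of the 11951 windows of all genes tested. CHR letters were found in 18 mitosis windows (75.0%) and in 2 S-phase windows (8.7%), against 11.4% of all. The NF-Y box was in 69.6% of S-phase and 79.2% of mitosis windows, against 36.6% of all. These are matches of letters, not measured binding, and a window without a match says only that these letters are not in it. RRM2 and CDC45, for instance, held NF-Y boxes and no E2F letters, and CCNB1 held NF-Y boxes and no CHR letters. Of the 47 starts, 39 had their first 30 transcribed bases inside a GENCODE transcript, so some windows may not lie at the start used in LS180 cells.

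**Figure D1:**
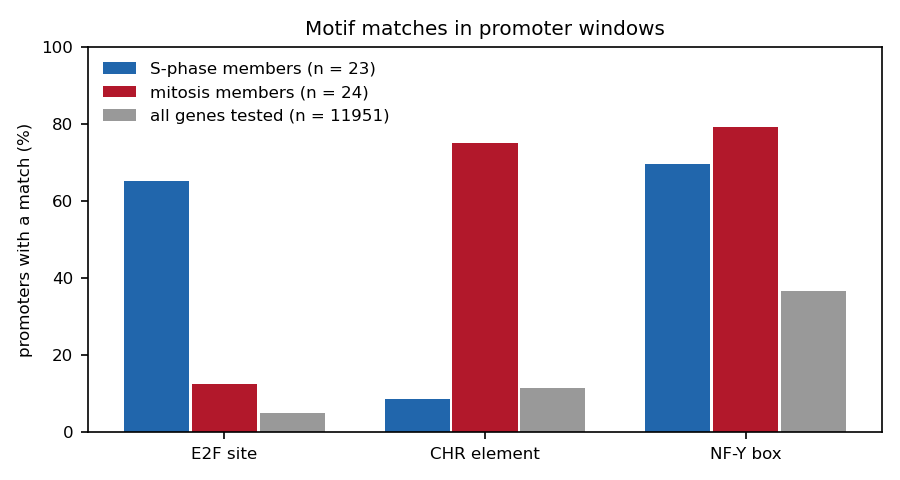
Percentage of promoter windows (vertical axis) with at least 1 match to the E2F site, the CHR element or the NF-Y box, for the 23 S-phase members, the 24 mitosis members and the 11951 tested genes with a window. E2F matches stand out in the S-phase bar (65.2%) and CHR matches in the mitosis bar (75.0%).

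Library totals ran from 31012775 to 48529770 counts. SOX9, the induced gene, stood at 712 and 761 CPM (counts scaled to the size and composition of the library) in the induced SOX9 line, against 357 and 381 CPM in the uninduced SOX9 line. It stood at 818 and 867 CPM in the induced M303 line and at 399 and 367 CPM in the uninduced M303 line. In the GFP line it had 405 and 371 CPM induced and 399 and 392 CPM uninduced, so the counts of SOX9 go with the labels. All 8 intestinal epithelium markers were above 1 CPM, with a summed level of 9810 to 11500 CPM, and the summed fibroblast and endothelial markers did not pass 2.97 and 0.457 CPM. The blood and immune list reached 600 CPM through LYZ alone, which is also a Paneth cell gene and was highest in the induced SOX9 line (599 CPM).

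All 57 members passed the filter on low counts, and 52 of them had at least 1000 counts in every library. Per exonic length, the S-phase member with the highest mean level was PCNA, the sliding clamp of DNA polymerases, at 269.7 RPKM (CPM per kilobase of exon). The lowest was CCNE2, a cyclin that starts S phase, at 1.8 RPKM. Other genes' exons cover 37.1% of its exonic bases, and reads shared with them were not counted, so this value may understate its level. Among mitosis members CDC20, the activator of the anaphase-promoting complex, was highest at 116 RPKM. HMGB2, a chromatin protein, followed at 109 RPKM and CCNB1, the main mitotic cyclin, at 102 RPKM. The lowest were NUSAP1 and PRC1, which bundle spindle microtubules, at 0.071 and 0.27 RPKM. Their counts were 4 to 21 and 32 to 79 per library. Other genes' exons cover 81.4% of the exonic bases of NUSAP1 and 61.9% of those of PRC1, and reads shared by overlapping genes were not counted. A gene without a symbol that overlaps PRC1 had 89 to 179 counts, and the one that overlaps NUSAP1 had 0. The values of NUSAP1 and PRC1 are therefore no measure of how much of their mRNA the cells held.

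Levels were steady across the 12 libraries. Without NUSAP1 and PRC1, the ratio of a member's highest to its lowest library had a median of 1.2, against 1.29 for 9902 well-expressed genes. It ranged from 1.07 for BUB1, a spindle checkpoint kinase, to 1.87 for CCNE2. BUB1 ran from 128 to 136 CPM over all 12 libraries. Within groups, the median member differed between its 2 libraries by 0.048 on the log2 scale in the induced SOX9 line and by 0.14 in the uninduced SOX9 line.

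**Figure D2:**
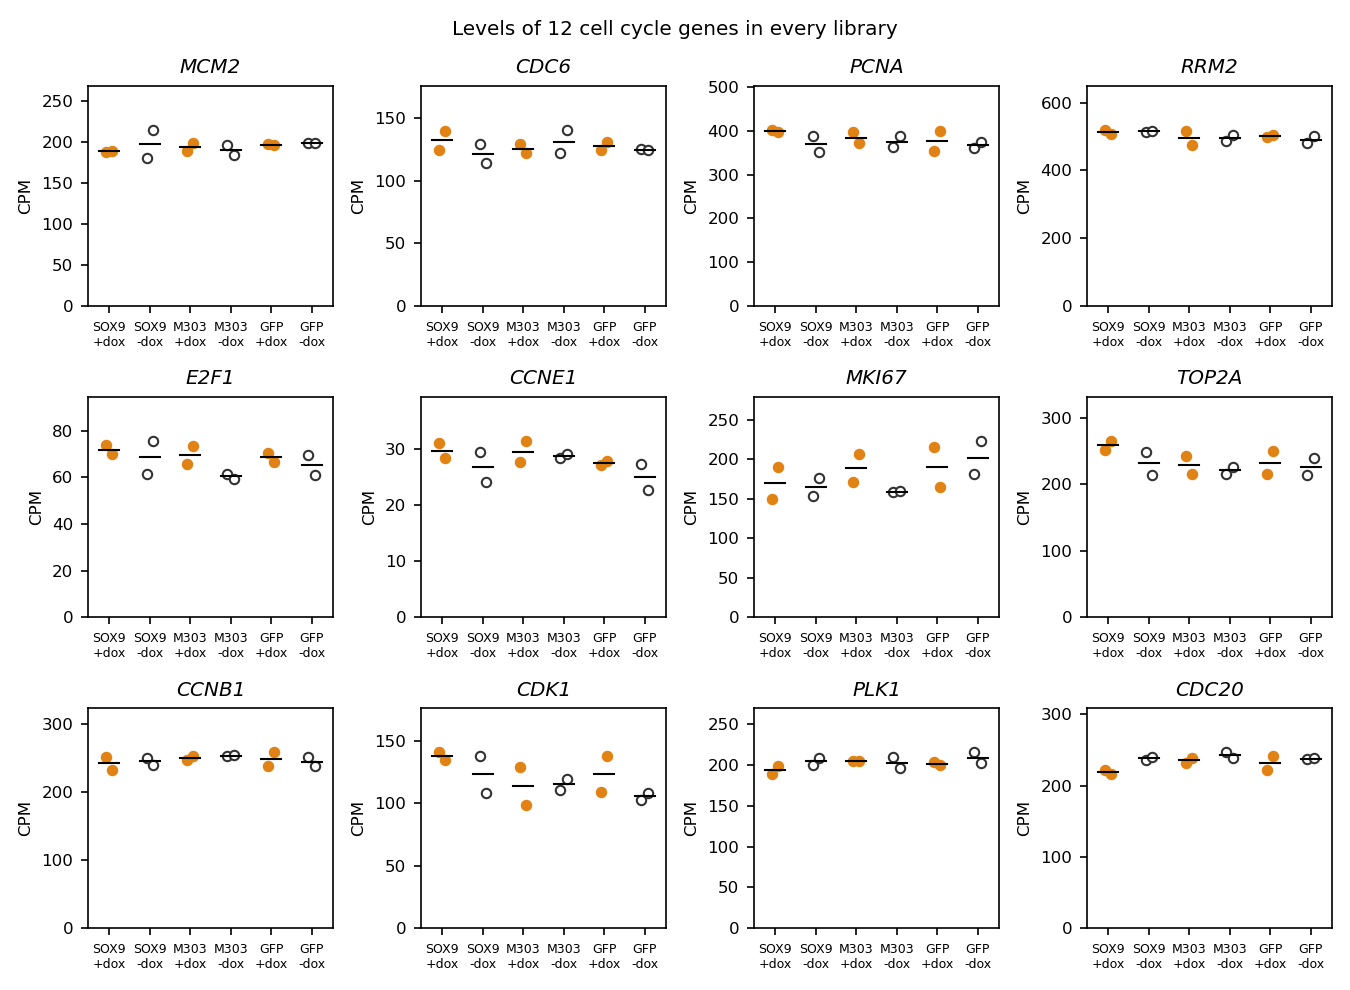
CPM (vertical axes, from 0) of 6 S-phase and 6 mitosis genes in each of the 12 libraries, by line and doxycycline. Filled points are induced libraries, open points uninduced ones, and bars the mean of 2; the points of every group lie close to those of the others, and in the induced M303 line the duplicates of CDK1 stand at 129 and 98.9 CPM.

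The first question was whether wild-type SOX9 changed the cell cycle program. It did not detectably change any member. With edgeR's quasi-likelihood test over all 12 libraries, 0 of 57 members were called at an adjusted p under 0.05, while 2.97% of all 18219 genes tested were called. DESeq2, which called 5.39% of its genes, also called 0 members. At an unadjusted p under 0.05 there were 2 members, ANLN and UHRF1, where 13.8% of all genes passed. In bulk RNA, fewer cycling cells and less of an mRNA per cycling cell cannot be told apart. The median log2 fold change was 0.017 for S-phase and 0.034 for mitosis members, against 0.0059 for all genes, and 37 of 57 members lay above 0 (50.9% of all genes did). Without replicate 1 of the uninduced SOX9 line the S-phase median was -0.019. The 95% interval of the fold change lay within 1.5-fold in either direction for 54 of the 57 members. The exceptions were CCNE2, NUSAP1 and PRC1.

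The MCM2 to MCM7 proteins form the ring that unwinds DNA at the fork. MCM2 stood at 187 and 189 CPM in the induced SOX9 line, against 180 and 214 CPM in the uninduced SOX9 line. The induced values lay between the uninduced ones (log2 fold change -0.068, SE 0.080). MCM5 had 291 and 282 CPM in the induced SOX9 line and 257 and 298 CPM in the uninduced SOX9 line, which again overlapped. MCM3 had 416 and 421 CPM in the induced SOX9 line and 382 and 389 CPM in the uninduced SOX9 line; its groups did not overlap, but it was not called (log2 fold change 0.12, SE 0.067, edgeR adjusted p = 0.465). Over the 6 subunits the log2 fold changes on SOX9 induction ran from -0.068 to 0.12, with 2 above 0. In M303 induction they ran from -0.013 to 0.077 with 5 above 0, and in GFP induction from -0.095 to -0.0040 with 0 above 0.

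CDC6, ORC1 and CDT1 load that ring at origins. CDC6 had 125 and 139 CPM in the induced SOX9 line and 129 and 114 CPM in the uninduced SOX9 line. It had 129 and 122 CPM in the induced M303 line and 122 and 140 CPM in the uninduced M303 line, and in the GFP line it had 125 and 131 CPM induced and 125 and 124 CPM uninduced. These groups overlapped in all 3 lines, and the log2 fold change on SOX9 induction was 0.12 (SE 0.087). ORC1 had the lowest estimate of the S-phase members on SOX9 induction, -0.096 (SE 0.081). CDC45, MCM10, GINS1 and GINS2 turn the loaded ring into a running helicase. CDC45 had 63.9 and 63.1 CPM in the induced SOX9 line and 60.3 and 64.3 CPM in the uninduced SOX9 line, with both induced values inside the uninduced range. The 4 genes ran from -0.056 to 0.027 (log2 fold change) on SOX9 induction, from -0.021 to 0.12 on M303 induction and from -0.092 to 0.071 on GFP induction.

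PCNA had 401 and 396 CPM in the induced SOX9 line, against 388 and 352 CPM in the uninduced SOX9 line. The M303 line had 397 and 371 CPM induced and 362 and 387 CPM uninduced. In the GFP line it had 353 and 399 CPM induced and 360 and 373 CPM uninduced. The induced SOX9 libraries were above both uninduced ones, and the M303 and GFP groups overlapped. The log2 fold change on SOX9 induction was 0.11 (SE 0.077), with edgeR adjusted p = 0.619. UHRF1, which helps copy DNA methylation behind the fork, had 174 and 184 CPM in the induced SOX9 line and 165 and 153 CPM in the uninduced SOX9 line. Its groups did not overlap, and its log2 fold change was 0.17 (SE 0.079, edgeR adjusted p = 0.331). In the GFP line the same gene had 159 and 161 CPM induced and 148 and 143 CPM uninduced, which did not overlap either, with a log2 fold change of 0.14 (SE 0.079). POLA1 and POLE, catalytic subunits of DNA polymerases, and FEN1, which trims Okazaki fragments, had estimates between -0.033 and 0.017 on SOX9 induction.

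RRM1 and RRM2 form ribonucleotide reductase, and TYMS and TK1 make thymidine nucleotides. RRM2 stood at 519 and 508 CPM in the induced SOX9 line, against 513 and 517 CPM in the uninduced SOX9 line. M303 libraries had 516 and 475 CPM induced and 487 and 504 CPM uninduced, and in the GFP line 497 and 505 CPM induced and 480 and 502 CPM uninduced. All 3 pairs of groups overlapped, and its log2 fold change on SOX9 induction was -0.0045 (SE 0.067). TYMS had 59.9 and 62.4 CPM in the induced SOX9 line and 56.1 and 61.1 CPM in the uninduced SOX9 line. Exons of opposite-strand genes cover 47.5% of its exonic bases, and the counting used no strand. In M303 induction TYMS had 62.2 and 63.1 CPM in the induced and 64.1 and 63.9 CPM in the uninduced line (log2 fold change -0.030, SE 0.085).

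E2F1 activates S-phase genes, E2F8 represses them, and CCNE1 and CCNE2 are the cyclins E that start replication. E2F1 had 73.8 and 70.0 CPM in the induced SOX9 line, against 61.6 and 75.6 CPM in the uninduced SOX9 line. In the M303 line it had 66.0 and 73.5 CPM induced and 61.4 and 59.5 CPM uninduced. Only the M303 groups were apart, and the log2 fold change there was 0.20 (SE 0.10, edgeR adjusted p = 1.00), with the smallest unadjusted p of any member on M303 induction. In the GFP line E2F1 had 70.6 and 66.7 CPM induced and 69.7 and 61.2 CPM uninduced. CCNE1 had 31.1 and 28.3 CPM in the induced SOX9 line and 29.4 and 24.1 CPM in the uninduced SOX9 line, which overlapped (log2 fold change 0.15, SE 0.12). CCNE2 had 8.82 and 8.11 CPM in the induced SOX9 line and 9.02 and 6.48 CPM in the uninduced SOX9 line. Its 218 counts in one library were the fewest of any member but NUSAP1 and PRC1, and its interval reached 0.61 (log2) on SOX9 induction, 0.68 on M303 induction and 0.75 on GFP induction.

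CDK1 is the kinase that drives mitosis, with cyclins A2, B1 and B2. It had 141 and 135 CPM in the induced SOX9 line, against 138 and 109 CPM in the uninduced SOX9 line. With M303 as the construct it had 129 and 98.9 CPM induced and 111 and 120 CPM uninduced. In the GFP line it had 110 and 138 CPM induced and 102 and 109 CPM uninduced. The GFP groups were apart and the other groups overlapped. Its log2 fold changes were 0.16 on SOX9 induction, -0.015 on M303 induction and 0.23 on GFP induction, each with an SE of 0.14. Without replicate 2 of the uninduced SOX9 line the first was -3.1e-05, and without replicate 2 of the induced GFP line the last was 0.053. CCNB1 had 251 and 233 CPM in the induced SOX9 line and 250 and 241 CPM in the uninduced SOX9 line (log2 fold change -0.018, SE 0.072). CCNA2 had 185 and 181 CPM in the induced GFP line and 197 and 208 CPM in the uninduced GFP line; the log2 fold change of -0.15 (SE 0.071) gave the smallest unadjusted p of any member on GFP induction (edgeR adjusted p = 1.00).

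PLK1 and AURKA are kinases of spindle assembly. PLK1 had 188 and 199 CPM in the induced SOX9 line, against 200 and 208 CPM in the uninduced SOX9 line. The induced values were just below the uninduced ones, with a log2 fold change of -0.076 (SE 0.071). AURKA had 108 and 100 CPM in the induced SOX9 line and 116 and 100 CPM in the uninduced SOX9 line (log2 fold change -0.051, SE 0.090). The 6 mitotic kinases and partners, among them AURKB with BIRC5 and CDCA8 of the chromosomal passenger complex, ran from -0.077 to 0.068 (log2 fold change) on SOX9 induction. They ran from -0.032 to 0.057 on M303 induction and from -0.050 to 0.052 on GFP induction.

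CDC20 had 222 and 216 CPM in the induced SOX9 line, against 236 and 240 CPM in the uninduced SOX9 line. The M303 line gave 232 and 238.6 CPM induced and 247 and 239.1 CPM uninduced, and in the GFP line 221.5 and 241 CPM induced and 237 and 238 CPM uninduced. It was lower in both induced libraries than in both uninduced ones in the SOX9 and in the M303 line, and on SOX9 induction its estimate was the lowest after NUSAP1 (log2 fold change -0.12, SE 0.070, edgeR adjusted p = 0.485). NUSAP1 itself was at -0.84 with an SE of 0.97, on its few counts. UBE2C, the ubiquitin-conjugating enzyme of the anaphase-promoting complex, had 90.7 and 80.8 CPM in the induced SOX9 line and 87.5 and 72.3 CPM in the uninduced SOX9 line. BUB1, BUB1B and MAD2L1 hold the spindle checkpoint, and their log2 fold changes on SOX9 induction were 0.0027, 0.082 and 0.024.

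Centromeres are marked by the histone variant CENPA, which had 27.45 and 28.05 CPM in the induced SOX9 line, against 28.1 and 28.5 CPM in the uninduced SOX9 line. CENPF, a large kinetochore protein, had 193 and 246 CPM in the induced SOX9 line and 173 and 192.5 CPM in the uninduced SOX9 line. Its log2 fold change of 0.26 was the highest of any member, but its SE was 0.15 and its edgeR adjusted p = 0.482. Without replicate 2 of the induced SOX9 line the estimate was 0.069. ANLN, the anillin that builds the contractile ring, had 140 and 146 CPM in the induced SOX9 line, against 123 and 117 CPM in the uninduced SOX9 line. In the M303 line ANLN had 138 and 120 CPM induced and 115 and 126 CPM uninduced, and in the GFP line 128 and 122 CPM induced and 119 and 137 CPM uninduced. Only the SOX9 groups were apart. On SOX9 induction ANLN had the smallest unadjusted p of any member, with an estimate of 0.26 (log2, SE 0.087, edgeR adjusted p = 0.142). Its change on SOX9 induction minus that on GFP induction was 0.30 (SE 0.12, edgeR adjusted p = 0.456). Of 6 spindle and cytokinesis genes, ANLN among them, 5 had estimates above 0 on SOX9 induction, 5 on M303 induction and 2 on GFP induction. Without NUSAP1 and PRC1 they ran from 0.055 to 0.26 (log2 fold change) on SOX9 induction. The range was -0.030 to 0.16 on M303 induction and -0.040 to 0.015 on GFP induction, and none of these genes was called.

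FOXM1 had 127 and 121 CPM in the induced SOX9 line, against 112 and 135 CPM in the uninduced SOX9 line. MYBL2 had 216 and 227 CPM in the induced SOX9 line and 209 and 250 CPM in the uninduced SOX9 line. Both activators overlapped between the groups, with log2 fold changes of 0.0021 (SE 0.094) for FOXM1 and -0.055 (SE 0.097) for MYBL2. MKI67, the proliferation antigen Ki-67 that coats mitotic chromosomes, had 150 and 190 CPM in the induced SOX9 line and 153.5 and 176 CPM in the uninduced SOX9 line. M303 libraries gave 171 and 206 CPM induced and 158 and 160 CPM uninduced, and in the GFP line 216 and 165 CPM induced and 181 and 223 CPM uninduced. Its groups overlapped in the SOX9 and GFP lines but not in the M303 line, where the log2 fold change was 0.25 (SE 0.16, edgeR adjusted p = 1.00). TOP2A, the topoisomerase that untangles sister chromatids, had 252 and 265 CPM in the induced SOX9 line and 248.5 and 214 CPM in the uninduced SOX9 line (log2 fold change 0.16, SE 0.091). HMGB2 had 304 and 298 CPM in the induced SOX9 line and 282 and 242 CPM in the uninduced SOX9 line (log2 fold change 0.20, SE 0.11). Both were higher in each induced library, and neither was called.

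**Figure D3:**
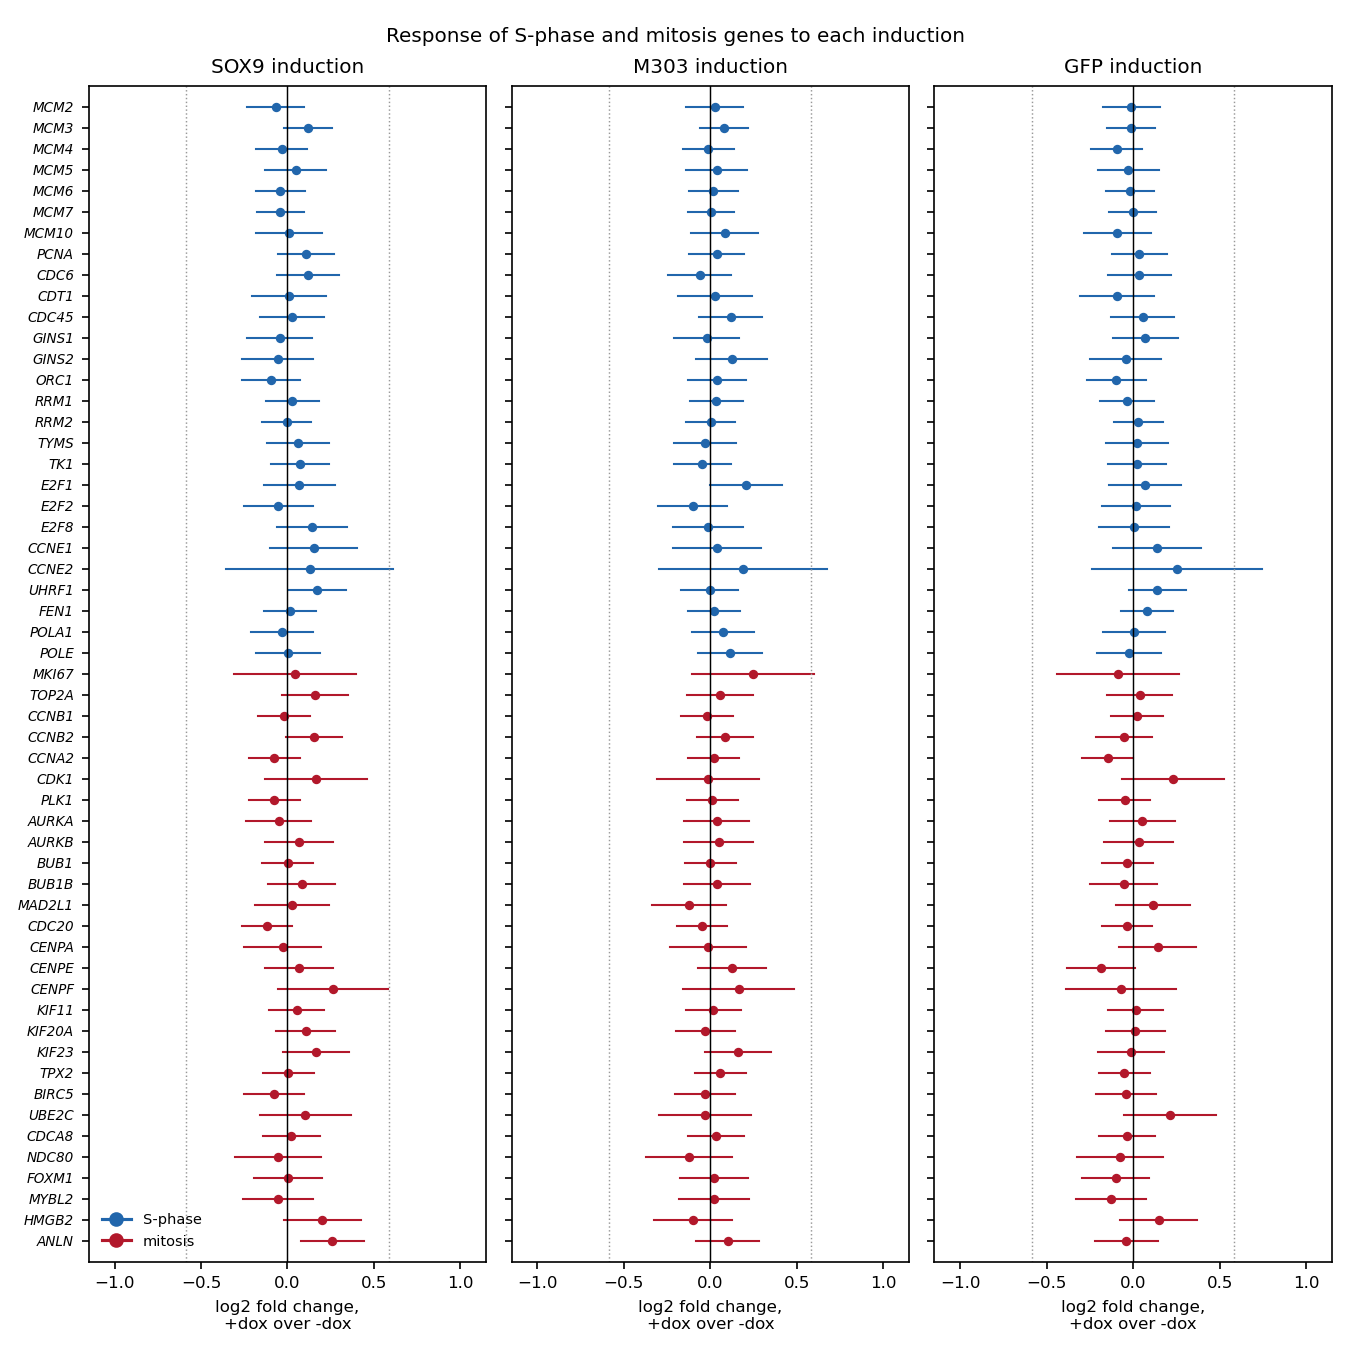
Log2 fold change of induced over uninduced libraries (horizontal axes) for 55 members in SOX9, M303 and GFP induction, with 95% intervals from edgeR; dotted lines mark 1.5-fold, and NUSAP1 and PRC1 are not drawn. Estimates lie close to 0 in all 3 panels, and the interval passes a dotted line for CCNE2 in each and for MKI67 in M303 induction.

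On M303 induction 0 of 57 members were called by edgeR, where 0.00549% of all genes were, which is SOX9 alone. DESeq2 called 0 members and 0.0165% of all genes. At an unadjusted p under 0.05 there were 0 members and 3.63% of all genes. The medians were 0.027 for S-phase and 0.020 for mitosis members, against 0.00075 for all genes, and the interval lay within 1.5-fold for 53 members. Above 0 lay 39 of 57 members, where 50.2% of all genes did. Beside NUSAP1 and PRC1, which had the highest estimates (0.80, SE 1.01, and 0.26, SE 0.38), the lowest were MAD2L1 (-0.13, SE 0.10) and NDC80 (-0.125, SE 0.12). NDC80, which ties kinetochores to microtubules, had 41.4 and 33.1 CPM in the induced M303 line and 37.3 and 44.0 CPM in the uninduced M303 line. These overlapped, and without replicate 2 of the induced M303 line the estimate of NDC80 was 0.028. On GFP induction 0 members were called by edgeR (0% of all genes) and 0 by DESeq2 (0.011% of all genes). CCNA2 alone had an unadjusted p under 0.05, where 3.18% of all genes passed. The medians were 0.0030 for S-phase and -0.039 for mitosis members (0.038 without replicate 2 of the uninduced GFP line), and the interval lay within 1.5-fold for 54. Above 0 lay 26 of 57 members, where 50.1% of all genes did. The lowest estimates were PRC1 (-0.61, SE 0.38) and CENPE (-0.19, SE 0.095), and the highest CCNE2 (0.26, SE 0.24) and CDK1. CENPE had 80.4 and 81.1 CPM in the induced GFP line and 84.4 and 99.6 CPM in the uninduced GFP line, and without replicate 2 of the uninduced line its estimate was -0.062. With each library left out in turn, 93 of 100 estimates of named members moved by over 1.5 times and 45 changed sign. A p that misses the threshold does not show that the levels were equal, and changes inside the intervals could have been missed. Changes beyond them could be missed too, because calls are adjusted for the number of genes and intervals are not.

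Induction was also averaged over the 3 lines, which gives the narrowest intervals. That mean holds the SOX9 and M303 constructs as well as the drug, and cannot tell them apart; GFP induction is the comparison with no SOX9 construct. The share of all genes called was 1.02% by edgeR and 1.94% by DESeq2, and each called 0 members. At an unadjusted p under 0.05 there were 2 members, UHRF1 and ANLN, where 9.58% of all genes passed. UHRF1 stood at 0.10 (log2, SE 0.046, edgeR adjusted p = 0.466) and ANLN at 0.11 (SE 0.050, edgeR adjusted p = 0.513). The interval lay within 1.5-fold for 56 of 57 members, all but NUSAP1, and the highest estimates were 0.19 for CCNE2 (0.019 without replicate 2 of the induced GFP line) and 0.13 for CDK1. The lowest were -0.085 for NDC80 and -0.068 for CCNA2. Above 0 lay 38 of 57 members, where 51.2% of all genes did.

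An interaction term asked whether inductions differed from each other, and 0 members were called in any of the 3 pairs by edgeR or by DESeq2. For SOX9 against GFP induction 0.895% of all genes were called by edgeR and 1.55% by DESeq2, and 1 member, ANLN, had an unadjusted p under 0.05, as 9.01% of all genes did. The medians were 0.013 (S phase) and 0.055 (mitosis). Beside NUSAP1 (-0.70, SE 1.41) and PRC1 (0.76, SE 0.53), the extremes were CENPF (0.33, SE 0.21) and CENPA (-0.17, SE 0.15). Without replicate 2 of the induced SOX9 line CENPF was at 0.14, and without replicate 1 of the uninduced GFP line CENPA was at -0.076. For M303 against GFP induction 0.00549% of all genes were called by either tool. At an unadjusted p under 0.05, which 3.94% of all genes passed, there was 1 member, the kinetochore motor CENPE, with a difference of 0.31 (SE 0.13, edgeR adjusted p = 0.992). HMGB2 and CDK1 had the lowest differences there, -0.25 (SE 0.15) and -0.24 (SE 0.19), and the highest were NUSAP1 (0.94, SE 1.43) and PRC1 (0.87, SE 0.54). Without replicate 2 of the induced GFP line HMGB2 was at -0.075, and without replicate 2 of the induced M303 line CDK1 was at -0.065. For SOX9 against M303 induction 0.489% of all genes were called by edgeR and 0.946% by DESeq2, and 0 members had an unadjusted p under 0.05, against 6.99% of all genes. HMGB2 had the highest difference there, 0.30 (SE 0.15, edgeR adjusted p = 0.739), and CDC6 followed at 0.18 (SE 0.12). The lowest differences were those of NUSAP1 (-1.64, SE 1.40) and MKI67 (-0.20, SE 0.23). Leaving out 1 library brought HMGB2 as low as 0.17 (replicate 2 of the induced M303 line), CDC6 as low as 0.071 (replicate 2 of the uninduced M303 line) and MKI67 as near 0 as -0.044 (replicate 1 of the induced SOX9 line). Each pair of these comparisons shares the 4 libraries of 1 line.

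Members whose groups did not overlap were counted beside the same share of all genes. In SOX9 induction both induced libraries were above both uninduced ones for 14 members (24.6%), against 23.2% of all genes, and below for 7 (12.3%), against 21.5%. In M303 induction 13 were above (22.8%, against 17.1%) and 4 below (7.02%, against 16.8%). In GFP induction 4 were above (7.02%, against 13.5%) and 7 below (12.3%, against 13.8%). By list, 4 S-phase and 10 mitosis members were above in SOX9 induction, among them PCNA, UHRF1, TOP2A, ANLN and the cytokinesis motors KIF20A and KIF23. The share of members was near that of all genes for the higher members of SOX9 induction and the lower members of GFP induction. It was above it for the higher members of M303 induction and below it in the other 3 counts, and these differences in share were not tested.

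S-phase and mitosis members were also summed as a share of each library. The S-phase members took 0.507% and 0.508% of the counts in the induced SOX9 line and 0.485% and 0.492% in the uninduced SOX9 line. The mitosis members took 0.418% and 0.424% in the induced SOX9 line and 0.406% and 0.389% in the uninduced SOX9 line. The induced SOX9 libraries were the highest 2 of the 12 on both shares, where the others ran from 0.481% to 0.500% and from 0.389% to 0.417%. A mean log2 level over the members, set to 0 over the 12 libraries, gives each gene equal weight. For S phase it was 0.030 and 0.026 in the induced SOX9 line and -0.025 and 0.016 in the uninduced SOX9 line. For mitosis, without NUSAP1 and PRC1, it was 0.035 and 0.046 in the induced SOX9 line and 0.018 and -0.039 in the uninduced SOX9 line. On that mitosis scale an uninduced GFP library (0.036) lay between the induced SOX9 libraries, so the order of libraries for mitosis depends on the measure. For S phase the induced SOX9 libraries were the highest 2 by share and by mean. By the median over S-phase members, replicate 2 of the uninduced SOX9 line (0.036) was above both (0.021 and 0.034). Every mean and median given here lay within 0.1 of 0 on the log2 scale.

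**Figure D4:**
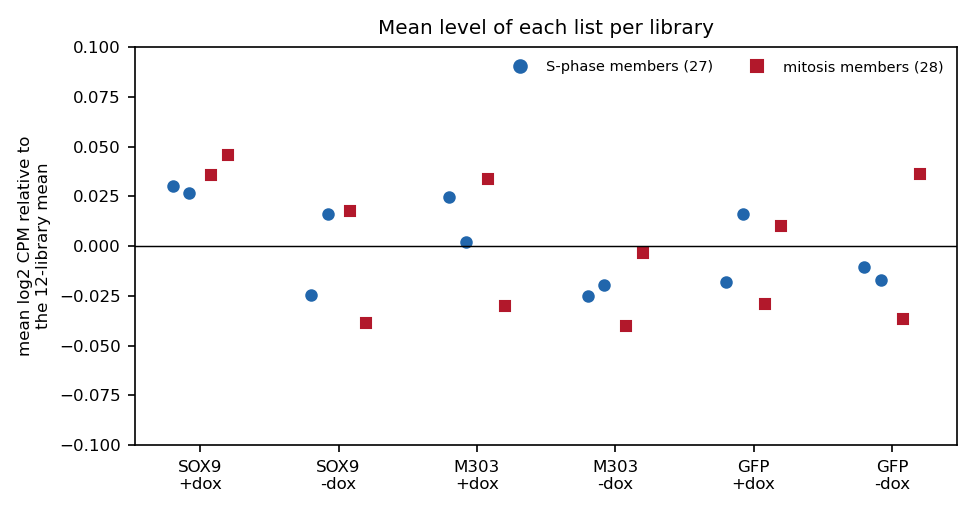
Mean log2 CPM of the 27 S-phase members (circles) and of 28 mitosis members (squares, without NUSAP1 and PRC1) relative to the mean of the 12 libraries (vertical axis), by line and doxycycline. Every point lies within 0.1 of 0, and the S-phase scores of the induced SOX9 line (0.030 and 0.026) are the highest 2 of the 12.

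S-phase minus mitosis level, from the same means without NUSAP1 and PRC1, was -0.0056 and -0.019 in the induced SOX9 line and -0.042 and 0.055 in the uninduced SOX9 line. In the M303 line it was -0.0087 and 0.032 induced and 0.015 and -0.016 uninduced. In the GFP line it was 0.011 and 0.0056 induced and 0.026 and -0.053 uninduced. Each pair of groups overlapped, so no shift between the lists was seen beyond the spread of duplicates.

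The uninduced lines were compared to ask whether they started alike. None of these 3 comparisons called a member with edgeR or DESeq2, and edgeR called 0% of all genes for SOX9 against GFP, 0.00549% for M303 against GFP and 0% for SOX9 against M303 (DESeq2 0.011%, 0.00549% and 0.00549%). For SOX9 against GFP 2 members, CENPA and UBE2C, had an unadjusted p under 0.05, where 4.75% of all genes did. For M303 against GFP there were 2, CENPE and CENPA, where 6.09% of all genes passed, and for SOX9 against M303 there were 0, where 2.79% passed. CENPA had 28.1 and 28.5 CPM in the uninduced SOX9 line and 27.2 and 28.8 CPM in the uninduced M303 line, against 21.8 and 25.03 CPM in the uninduced GFP line. Both lines lay above the GFP line, with log2 fold changes of 0.27 and 0.26 (SE 0.11 each). MKI67 had 153.5 and 176 CPM in the uninduced SOX9 line and 158 and 160 CPM in the uninduced M303 line, against 181 and 223 CPM in the uninduced GFP line. Both lines lay below, with log2 fold changes of -0.29 and -0.35 (SE 0.16 each), and without replicate 2 of the uninduced GFP line these were -0.14 and -0.19. CENPF was at -0.25 (SE 0.15) in the SOX9 line against the GFP line, or -0.098 without that library. UBE2C was at 0.28 in the SOX9 line and at 0.25 in the M303 line (SE 0.13 each), and without replicate 1 of the uninduced SOX9 line the first was 0.14. NUSAP1, on its few counts, was at 0.88 (SE 0.98) and -0.37 (SE 1.03). In the M303 line 17 members (29.8%), PRC1 among them, were below both uninduced GFP libraries, against 18.6% of all genes. Above were 12 (21.1%), against 18.8%. Between the SOX9 and M303 lines the extreme estimates beside NUSAP1 (1.253, SE 1.00) were E2F1 (0.18, SE 0.10, or 0.025 without replicate 2 of the uninduced SOX9 line), TYMS (-0.13, SE 0.086) and E2F2 (-0.11, SE 0.095).

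These baseline differences moved with exonic length, the number of bases in any annotated exon of the gene. The long members MKI67, CENPF and CENPE were lower and the short members UBE2C and CENPA were higher in both lines than in the GFP line. Not every member followed length: MAD2L1, with 5517 exonic bases, was above both uninduced GFP libraries in both lines. Over the 57 members, Spearman's rho of log2 fold change with exonic length was -0.467 for uninduced SOX9 against GFP and -0.504 for uninduced M303 against GFP. Over 9902 well-expressed genes it was -0.335 and -0.384. These are correlations across genes, which share the libraries and are not replicates. In replicate 2 of the uninduced GFP line, genes in the top length quintile had a median log2 level 0.166 above those in the bottom quintile, relative to the 12-library mean. With a length trend removed from each library, rho over the members was -0.146 and -0.118. The trend was fitted to these same libraries, so the change in rho is largely built in and is no test of length. Inductions showed weaker trends over the members: rho was 0.11 for SOX9, 0.269 for M303 and -0.285 for GFP induction, 0.319 for SOX9 against GFP and 0.348 for M303 against GFP induction. With the trend removed these were -0.121, -0.0931, -0.0605, -0.0473 and 0.0149. The comparisons share libraries. The part of length in any single member's difference was not tested.

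**Figure D5:**
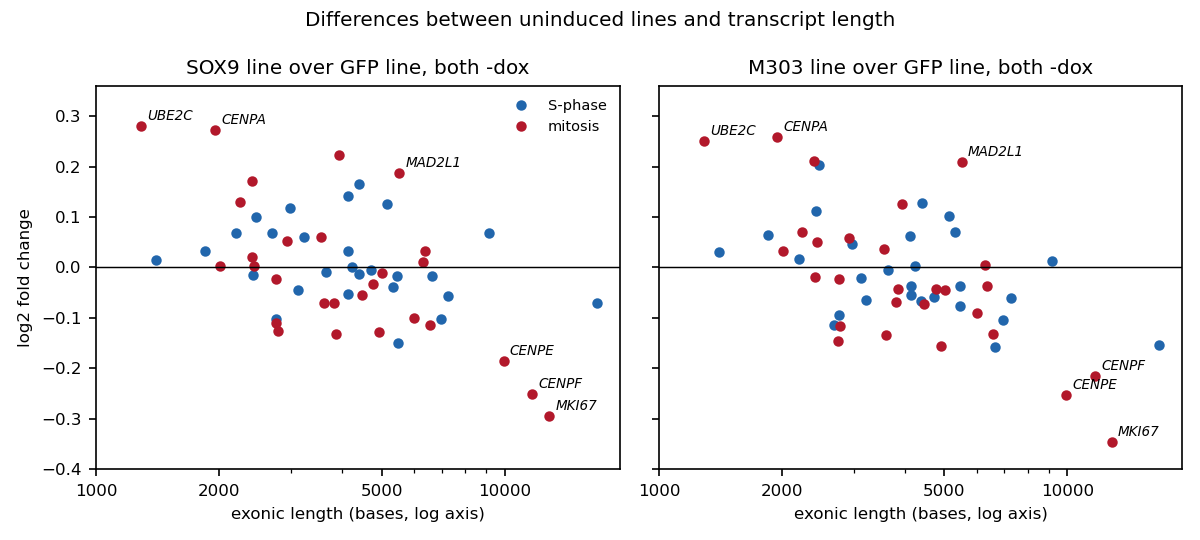
Log2 fold change between uninduced lines (vertical axes) against exonic length (bases, log axis) for 55 members, with the SOX9 line over the GFP line on the left and the M303 line over the GFP line on the right. In both panels UBE2C, CENPA and MAD2L1 lie highest among the labelled genes and CENPE, CENPF and MKI67 lowest.

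Further S-phase genes, mitosis genes, and repressors and cofactors gave 1 call on SOX9 induction, and the calls among G1 genes are given below. Among 42 further S-phase genes, HELLS, a chromatin remodelling helicase, rose: it had 80.1 and 82.7 CPM in the induced SOX9 line, against 66.8 and 62.0 CPM in the uninduced SOX9 line. Its log2 fold change was 0.34 (SE 0.090, edgeR adjusted p = 0.0452). That is 1 call in 42, where 2.97% of all genes were called, and 7 of the 42 had an unadjusted p under 0.05, where 13.8% of all genes did. The call was lost in 8 of the 12 fits that left out 1 library: with each of the SOX9 and M303 libraries left out the adjusted p was 0.0548 to 0.386. Among 49 further mitosis genes edgeR called 0 and DESeq2 0, while 4 had an unadjusted p under 0.05, and the smallest adjusted p was that of SPC24, a kinetochore subunit (0.32, SE 0.11, edgeR adjusted p = 0.146). Among 14 repressors and cofactors of the RB and DREAM pathways edgeR called 0 and DESeq2 0, and 0 had an unadjusted p under 0.05.

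Of 12 G1 cyclins, their kinases and inhibitors that could be tested, 1 rose and 1 fell on SOX9 induction, where 2.97% of all genes were called, and 4 had an unadjusted p under 0.05, where 13.8% of all genes did. CDK6, a G1 kinase, had 198 and 235 CPM in the induced SOX9 line, against 145 and 160 CPM in the uninduced SOX9 line (log2 fold change 0.51, SE 0.091, edgeR adjusted p = 0.00194). CCND2, a D-type cyclin, had 10.5 and 13.4 CPM in the induced SOX9 line, against 20.1 and 22.1 CPM in the uninduced SOX9 line (log2 fold change -0.83, SE 0.16, edgeR adjusted p = 0.00470). Neither gene's groups overlapped. Without replicate 2 of the induced SOX9 line CDK6 was not called (0.37, edgeR adjusted p = 0.121), and without replicate 1 CCND2 was not called (-0.66, edgeR adjusted p = 0.119). CDK6 also passed the test of SOX9 against GFP induction, with a difference of 0.61 (edgeR adjusted p = 0.0193), but not that of SOX9 against M303 induction (0.43, edgeR adjusted p = 0.273). CCND2 passed neither, with differences of -0.64 against GFP induction (edgeR adjusted p = 0.333) and -0.61 against M303 induction (edgeR adjusted p = 0.517). HELLS passed neither, with differences of 0.34 (edgeR adjusted p = 0.376) and 0.25 (edgeR adjusted p = 0.759). CCND2 was also lower, but not called, on M303 induction (log2 fold change -0.22, SE 0.16) and GFP induction (-0.19, SE 0.16). Averaged over the 3 lines, SOX9 included, its change was called (-0.41, SE 0.092, edgeR adjusted p = 0.0278). CDK6 was at 0.079 on M303 induction and -0.10 on GFP induction (SE 0.091 each). Uninduced, CDK6 stood at 145 and 160 CPM in the SOX9 line and 164 and 183 CPM in the GFP line (log2 fold change -0.19, SE 0.091).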

How the data were processed

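RNA was measured in 12 LS180 libraries in 6 groups of 2. Per the submitters' processing notes, alignment used STAR 2.7.0a and hg38, and the deposited counts per gene were made with featureCounts 2.0.1 and the Ensembl release 101 annotation, per the file headers. The recorded command has no paired-end, strand, multi-mapping or overlap option, so the authors' counts are of mates on either strand, and reads shared with pseudogenes (14 members have named ones) or overlapping genes are not counted. Of the members, 19 overlap another gene's exons, and 5 share over 20% of their exonic bases: NUSAP1, PRC1, TYMS, CCNE2 and MCM2.

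The test was edgeR 4.0.16 (R 4.3.3; robust quasi-likelihood F-test, TMM, filterByExpr, 1 mean per group, 6 residual degrees of freedom). The filter left 18219 genes, and p-values were adjusted over all of them by Benjamini-Hochberg. There were 10 comparisons. Intervals are 95% and rest on the model's SE. DESeq2 1.42.0 was an alternative. Scripts were tested on simulated data. CPM uses TMM factors (0.981 to 1.02), and RPKM divides it by exonic length. Of the gene IDs, 42020 (69.3%) matched a symbol. Members, lists and tests were chosen with earlier results of these data known. The text names members set out as examples of each role, the 2 highest and 2 lowest estimates of each comparison, the highest and lowest level of each list, and called genes of the further lists (or the one with the smallest p). UHRF1, MCM3, ORC1, BUB1, UBE2C and CCNA2 and others outside this rule were named after their values were seen.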

Additional observations from a re-analysis of the deposited data

How the results depend on the processing

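No member was called in any of the 10 comparisons with RLE size factors, no filter on low counts, DESeq2, a replicate block, or any of the 12 libraries left out (0 members each), nor with only the groups compared, which applies to 9 of them. DESeq2 gave NUSAP1 no adjusted p in 4 comparisons, SOX9 induction among them. Labels number the duplicates, but replicate differences correlated between groups from -0.51 to 0.428, so the numbers were not read as pairs. With the replicate block SOX9 induction called 452 genes in place of 541 and 0 members, and with the numbers crossed 439 genes and 0 members; HELLS was then at adjusted p = 0.0740 and 0.0807, and with RLE at 0.0524. Alternatives added after seeing the data were removal of each library's length trend, leaving out NUSAP1 and PRC1, and the crossed block. With the length trend removed, S-phase medians were 0.040 (SOX9 induction), 0.040 (SOX9 against GFP induction) and -0.047 (uninduced M303 against GFP). Mitosis medians were 0.092 (SOX9 against GFP induction), 0.093 (M303 against GFP induction) and -0.058 (uninduced SOX9 against GFP). Without NUSAP1 and PRC1, S-phase minus mitosis level was 0.055 in replicate 2 of the uninduced SOX9 line. The cause of these shifts was not tested.

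With single libraries left out, S-phase medians ran from -0.019 to 0.051 (SOX9 induction), 0.018 to 0.053 (M303 induction), -0.027 to 0.048 (SOX9 against GFP induction), -4.2e-05 to 0.040 (M303 against GFP induction), -0.048 to 0.016 (SOX9 against M303 induction), -0.025 to 0.033 (uninduced SOX9 against GFP) and 0.018 to 0.056 (uninduced SOX9 against M303). Mitosis medians ran from -0.0035 to 0.071 (M303 induction), -0.059 to 0.038 (GFP induction), 0.018 to 0.095 (M303 against GFP induction), -0.070 to 0.015 (uninduced M303 against GFP) and -0.024 to 0.036 (uninduced SOX9 against M303). Ranges that span 0 mean that leaving out 1 library turned the sign of that median. A lone remaining library was assumed to vary like the other groups. With 2 libraries a group, changes inside the intervals given (median half-width 0.183 on the log2 scale for SOX9 induction) could have been missed. Larger changes could be missed too, since the intervals are not adjusted for the number of genes and the calls are. On SOX9 induction ANLN at 0.26 was not called, and HELLS at 0.34 only just was (edgeR adjusted p = 0.0452).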
